A study of Rattus norvegicus with 8 samples.

Results

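Transient receptor potential (TRP) channels and Piezo channels are cation channels by which cells sense heat, cold, irritants, osmotic stress, oxidants and mechanical force. The 10 genes described here are Trpv1, Trpv2, Trpv4, Trpa1, Trpm2, Trpm3, Trpm7, Trpm8, Piezo1 and Piezo2, taken by name from the deposited count table, in which all 10 were found among 22601 gene names. All 10 had enough counts to be tested, among 15763 tested genes. TRPV1, TRPA1, TRPM3 and TRPM8 are known from the heat, irritant and cold responses of sensory neurons, and PIEZO2 from their response to touch. TRPV2, TRPM2 and PIEZO1 are also known from macrophages, endothelium and other non-neuronal cells, and TRPM7 from most cell types. The cell bodies of sensory neurons lie in the dorsal root ganglia, so a nerve segment holds their axons together with Schwann cells, perineurial cells, fibroblasts, vessels and immune cells.

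The tissue was rat sciatic nerve taken on day 15 after chronic constriction injury (CCI, loose ligatures around the nerve, a model of neuropathic pain; 4 libraries) or after a sham operation (4 libraries), and polyA RNA was sequenced. The labels name no strain, sex, age or genotype and do not tie libraries to animals, so a p-value reflects library-to-library variation that could in part be technical. The comparison asks which channel transcripts differ between constricted and sham-operated nerve. Levels are normalised counts (CPM, scaled to a common library total with TMM, which corrects for library makeup), as mean ± SD with n = 4 per group, and log2 fold changes are CCI over sham with an approximate standard error (SE). A gene was called at a Benjamini-Hochberg adjusted p under 0.05 over all tested genes in edgeR's quasi-likelihood test.

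Total counts lay between 42541217 and 54559292 in CCI libraries and between 42654145 and 48573026 in sham libraries. Myelinating Schwann cell markers, which mark peripheral nerve, were abundant in every library, at a summed 6877 to 10561 CPM in CCI and 91692 to 108110 CPM in sham libraries. Sensory neuron cell body markers were near 0, with Pou4f1, a transcription factor of these neurons, at no more than 7 counts in any library. The summed CPM of 12 skeletal muscle markers varied within both groups, from 17.3 to 5777 in CCI libraries and from 36.2 to 1054 in sham libraries, and was highest in CCI 2 and sham 2. Leaving out these 2 libraries turned no call among the 10 genes except that of Trpm7. Trpm8 and Piezo1 overlap other protein-coding genes of the count table in RefSeq (assembly GRCr8), as described beside their values. Trpv2 overlaps the protein-coding gene LOC120095326 and the small nucleolar RNA genes Snord49a, Snord49b and Snord65 there. None of these was found by name in the count table, and whether their reads entered the Trpv2 count was not tested.

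The 10 genes divided into 5 that rose (Trpv2, Trpm8, Trpm2, Trpv4 and Piezo1), 4 that fell (Trpm3, Trpv1, Trpa1 and Trpm7) and 1, Piezo2, that did not pass. The rises went up to 13.7-fold in Trpv2 and the falls up to 5.51-fold in Trpm3, while Trpm7 was 1.15-fold lower. Calls were common in the whole table: 68.4% of tested genes were called, 36.2% higher and 32.2% lower in CCI, so 9 calls among 10 genes say little beyond each gene's own values. The median log2 fold change was 0.47 over the 10 genes and 0.05 over all tested genes. The libraries of the groups did not overlap in 8 of the 10 genes, against 64.8% of all tested genes, and called changes of at least 2-fold were seen in 7 of them, against 30.3%.

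**Figure D1:**
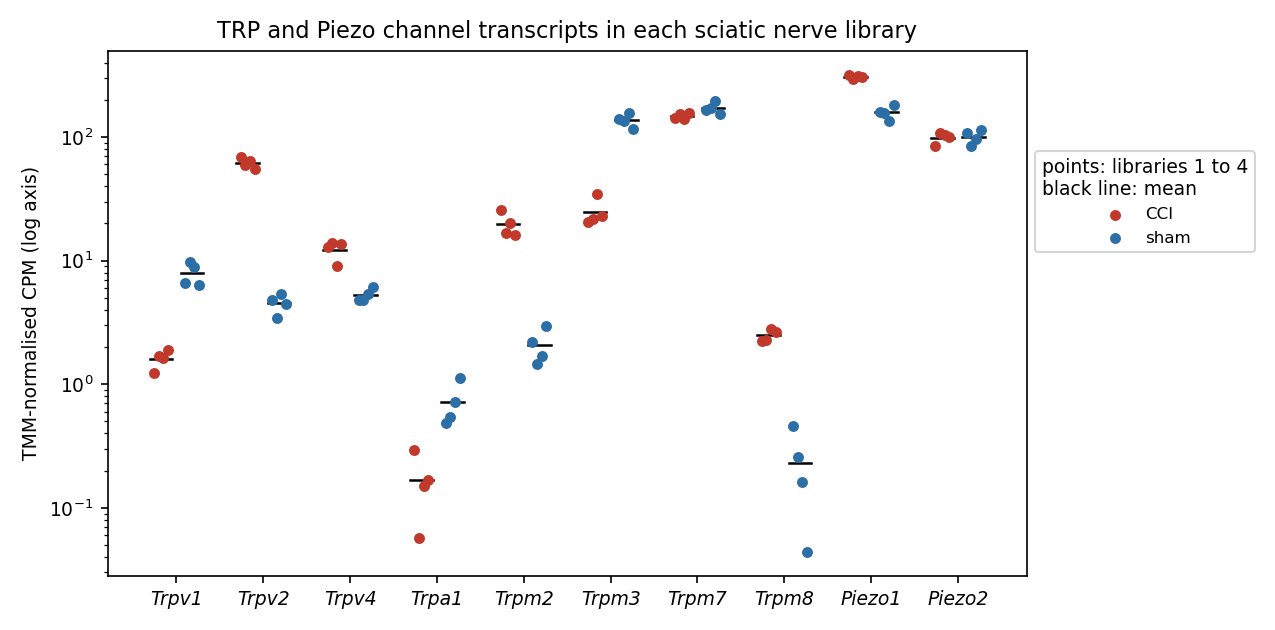
TMM-normalised CPM (log axis) of the 10 genes, 1 point per library with CCI left of sham, and the group mean as a black line. CCI and sham points are separate for 8 genes and overlap for Trpm7 and Piezo2, and Trpv2 shows the largest rise, with means of 61.8 CPM in CCI and 4.51 CPM in sham libraries.

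Sequence around the transcription start is shown for Trpv2 and Trpm2, and for Trpm3 and Trpv1, which had large rises and the largest falls. Trpm8 rose more than Trpm2 but is left out here, since its count is uncertain. RefSeq windows (build GRCr8) of 300 bases, from 250 before to 50 after the start, were matched by symbol for 8 of the 10 genes, while Trpa1 and Piezo1 are named only. Trpm3 has 2 starts in the table, of which the upstream one is shown. Capitals mark matches to 5 motifs searched on both strands, the AP-1 site TGANTCA, the ETS site AGGAAGT, the HIF core ACGTG, the GC box GGGCGG and the TATA box TATAAA, which were held by 7.33%, 8.41%, 19.3%, 33.1% and 14.2% of 33469 windows. The HIF core was included because HIF-1 is named in the title of the series.
Trpv2 (chr10:47771973-47772272, plus strand): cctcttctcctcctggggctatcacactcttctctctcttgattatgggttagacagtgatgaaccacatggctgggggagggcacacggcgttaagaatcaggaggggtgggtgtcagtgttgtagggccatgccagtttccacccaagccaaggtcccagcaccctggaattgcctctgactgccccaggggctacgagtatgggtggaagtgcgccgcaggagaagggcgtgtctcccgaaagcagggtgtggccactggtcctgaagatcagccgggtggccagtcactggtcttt
Trpm2 (chr20:10704222-10704521, plus strand): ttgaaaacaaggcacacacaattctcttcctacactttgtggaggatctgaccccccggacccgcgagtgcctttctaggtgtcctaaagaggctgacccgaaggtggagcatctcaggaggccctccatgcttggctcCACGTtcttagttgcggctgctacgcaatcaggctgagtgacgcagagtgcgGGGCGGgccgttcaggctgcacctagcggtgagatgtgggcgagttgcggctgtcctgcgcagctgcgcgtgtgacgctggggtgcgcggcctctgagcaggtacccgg
Trpm3 (chr1:229099491-229099790, plus strand): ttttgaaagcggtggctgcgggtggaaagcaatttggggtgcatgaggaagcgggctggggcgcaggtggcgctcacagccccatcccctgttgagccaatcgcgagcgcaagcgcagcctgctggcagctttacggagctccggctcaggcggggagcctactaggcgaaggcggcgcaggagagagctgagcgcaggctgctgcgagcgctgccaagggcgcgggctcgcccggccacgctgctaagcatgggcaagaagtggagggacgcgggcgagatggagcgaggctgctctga
Trpv1 (chr10:58349686-58349985, plus strand): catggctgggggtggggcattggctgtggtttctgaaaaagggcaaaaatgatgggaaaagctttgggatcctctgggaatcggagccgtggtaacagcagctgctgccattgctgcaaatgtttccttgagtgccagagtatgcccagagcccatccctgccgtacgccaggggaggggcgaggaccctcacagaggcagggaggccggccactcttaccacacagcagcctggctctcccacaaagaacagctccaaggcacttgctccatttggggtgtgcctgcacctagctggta

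Of these windows, that of Trpm2 held 1 HIF core match and 1 GC box, and those of Trpv2, Trpm3 and Trpv1 held none of the 5 motifs. The other windows of the set held a TATA box in Trpm8, a GC box in Piezo2, 1 HIF core and 2 GC boxes in Trpv4, and 1 GC box in Trpm7. The Trpm7 window also held 4 HIF core matches, in pairs that overlap on opposite strands in the E-box CACGTG. CpG dinucleotides numbered 38 in Trpm7, 34 in Trpv4 and 27 in the Trpm3 window shown, but 8 in Trpv2, 6 in Trpv1 and 5 in Trpm8, against a median of 7 over all windows. Genes that rose and genes that fell were found both among the windows rich in CpG and among those poor in it. A match describes letters only.

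Trpv1, Trpa1 and Trpm3, whose channels are known from heat and irritant responses of sensory neurons, were lower in the injured nerve. Trpv1, the capsaicin- and heat-gated channel of nociceptors, had 1.23, 1.69, 1.64 and 1.89 CPM in CCI 1 to 4, against 6.65, 9.70, 8.81 and 6.33 CPM in sham 1 to 4. Every CCI library was thus below every sham library, and Trpv1 fell 4.89-fold (log2 fold change -2.29, SE 0.20; edgeR adjusted p = 2.76e-06). Trpa1, the channel for mustard oil and other reactive irritants, was rare, with 17, 3, 7 and 8 counts in CCI 1 to 4 and 19, 23, 31 and 51 counts in sham 1 to 4. These correspond to 0.167 ± 0.0973 CPM in CCI and 0.719 ± 0.288 CPM in sham libraries, while 3 counts, the floor for a gene with no reads, equal 0.0518 to 0.0771 CPM. The normalised groups did not overlap, and Trpa1 fell with a wide error (log2 fold change -2.08, SE 0.52; edgeR adjusted p = 0.00436).

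Trpm3, a channel opened by heat and by pregnenolone sulfate, was far more abundant than Trpv1 and Trpa1 in the sham nerve and fell the most of the 10. It had 20.7, 21.6, 34.5 and 23.1 CPM in CCI 1 to 4, against 141, 135, 158 and 116 CPM in sham 1 to 4 (log2 fold change -2.46, SE 0.17; edgeR adjusted p = 1.61e-06). CCI 3 was the highest of its group but remained well under the sham libraries. CCI 3 also had the highest sums of the CCI group for 10 myelinating Schwann cell markers (10561 CPM), 10 Schwann cell lineage markers (2118 CPM) and 8 perineurial markers (1195 CPM). The other CCI libraries did not follow the myelin sum in order, CCI 4 having the lowest (6877 CPM) with the second-highest Trpm3 and CCI 1 the second-highest (8547 CPM) with the lowest Trpm3. Within the CCI group the Schwann cell lineage sum did go in the order of Trpm3, with 1247, 1414, 1677 and 2118 CPM in CCI 1, 2, 4 and 3. The perineurial sum did not, being lowest in CCI 2 (897 CPM). Within the sham group the lineage sum did not go in the order of Trpm3, with 4452, 3661, 4276 and 3777 CPM in sham 1 to 4. The part of these cells in the Trpm3 value was not tested. In RefSeq the Trpm3 gene also spans Mir204, a microRNA gene that was not measured here.

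Markers of sensory neurons were sparse, and they moved both ways. Of 20 such genes 9 were under 1 CPM in every library, among them the peptide genes Calca, at 1 to 10 counts in CCI and 1 to 12 counts in sham libraries, and Tac1, at 0 to 6 and 0 to 4 counts. Of the 13 tested, 8 fell and 3 rose, with a median log2 fold change of -0.94. The nociceptor sodium channel gene Scn10a had 0.153 ± 0.107 CPM in CCI and 0.742 ± 0.156 CPM in sham libraries (edgeR adjusted p = 0.00245), and Scn9a 2.70 ± 1.13 and 10.9 ± 2.02 CPM (edgeR adjusted p = 0.000123). Uchl1, a ubiquitin hydrolase abundant in neurons, had 30.2 ± 1.82 CPM in CCI and 61.3 ± 1.64 CPM in sham libraries (edgeR adjusted p = 1.94e-07). The neurofilament genes were split. Those of the light and medium chains rose, Nefm with 13.4 ± 5.85 CPM in CCI and 1.84 ± 0.375 CPM in sham (edgeR adjusted p = 4.01e-05) and Nefl with 30.5 ± 10.2 and 5.99 ± 1.93 CPM (edgeR adjusted p = 0.000188). Nefh, for the heavy chain, fell, with 0.910 ± 0.0986 CPM in CCI and 2.23 ± 0.308 CPM in sham libraries (edgeR adjusted p = 0.000577). The summed CPM of the 20 markers was 102 to 132 in CCI and 96.2 to 113 in sham libraries. This sum adds genes that fell, such as Uchl1, and genes that rose, such as Nefl. Which cells held the Trpv1, Trpa1 and Trpm3 transcripts was not tested, and in whole nerve fewer cells of a type and less RNA per cell cannot be told apart.

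Trpm8, the cold and menthol receptor, was counted more often in the injured nerve, where the sham level was close to the limit of counting. The counts were 130, 121, 131 and 127 in CCI 1 to 4, against 18, 11, 7 and 2 in sham 1 to 4. In CPM the levels were 2.50 ± 0.271 in CCI and 0.232 ± 0.177 in sham libraries, and Trpm8 rose 10.8-fold (log2 fold change 3.43, SE 0.50; edgeR adjusted p = 0.000119). RefSeq places Hjurp, which encodes a centromere histone chaperone of dividing cells, so that it overlaps Trpm8, and whether counting used strand is not given in the sources used here. Hjurp itself had 27.7 ± 4.2 CPM in CCI and 2.89 ± 0.946 CPM in sham libraries (log2 fold change 3.25, SE 0.21; edgeR adjusted p = 4.59e-07). The Trpm8 count was 6.69% to 11.1% of the Hjurp count in CCI libraries and 1.03% to 17.8% in sham libraries. The ratio thus varied in both groups, in the sham group on only 2 to 18 Trpm8 counts. Whether reads of Hjurp entered the Trpm8 count was not tested, and the Trpm8 value is uncertain for that reason.

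**Figure D2:**
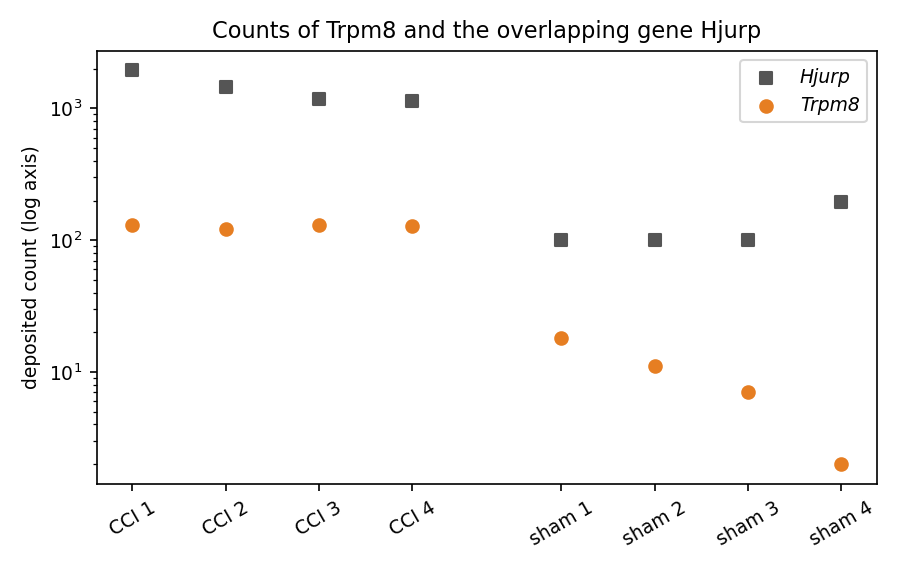
Deposited counts (log axis) of Trpm8 and of the overlapping gene Hjurp in each library, CCI left of sham. Both are higher in all 4 CCI libraries, Trpm8 with 121 to 131 counts there and 2 to 18 counts in sham libraries, and sham 4 has the most Hjurp and the fewest Trpm8 counts of the sham group.

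Trpv2 and Trpm2, channels known from myeloid cells, rose strongly. Trpv2, a calcium-permeable channel linked to phagocytosis in mouse macrophages, had 69.5, 59.3, 63.8 and 54.6 CPM in CCI 1 to 4, against 4.80, 3.41, 5.39 and 4.43 CPM in sham 1 to 4. The lowest CCI library was about 10 times the highest sham library, and Trpv2 rose 13.7-fold (log2 fold change 3.78, SE 0.14; edgeR adjusted p = 8.20e-09). It ranked 133 by p among the 15763 tested genes, and 381 genes had a larger rise. Trpm2, gated by ADP-ribose and responsive to oxidative stress, had 25.7, 16.8, 20.3 and 16.0 CPM in CCI 1 to 4, against 2.21, 1.46, 1.70 and 2.96 CPM in sham 1 to 4. The groups were far apart, and Trpm2 rose 9.46-fold (log2 fold change 3.24, SE 0.24; edgeR adjusted p = 1.11e-06).

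The next genes encode enzymes that make or break down the TRPM2 ligand. Of 6 such genes, 5 rose and 1 fell, while of all tested genes 68.4% were called, 36.2% higher and 32.2% lower. When CCI 2 and sham 2 were left out, 4 of the 6 were called and only 3 rose. The calls lost were those of Parp2 (edgeR adjusted p = 0.0651) and Parg (0.103). The counts thus say little beyond each gene's own values. The largest rise was in Bst1, an ADP-ribosyl cyclase, with 25.3 ± 4.25 CPM in CCI and 0.972 ± 0.364 CPM in sham libraries (log2 fold change 4.69, SE 0.25; edgeR adjusted p = 1.01e-07). Cd38, the other cyclase, had 54.0 ± 1.38 CPM in CCI and 17.7 ± 2.18 CPM in sham libraries (edgeR adjusted p = 9.91e-08). The gene that fell was Nudt9, an ADP-ribose hydrolase, with 27.7 ± 1.68 CPM in CCI and 44.9 ± 2.59 CPM in sham libraries (edgeR adjusted p = 8.13e-06). The smaller calls of Parp2 and Parg were each lost in several other settings, Parg also without CCI 1, 2 or 3 or sham 1 or 2 (edgeR adjusted p = 0.059 to 0.112) and Parp2 without CCI 1 (0.0522) or CCI 4 (0.052).

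Macrophage markers moved in the direction of Trpv2 and Trpm2. Of 12 such genes 11 rose and 0 fell, with a median log2 fold change of 2.19, and their summed CPM was 2569 to 2929 in CCI and 658 to 1011 in sham libraries. None of the 12 was at 0 in any library, and Cd163, a scavenger receptor of resident macrophages, was the member that did not pass, with 252 ± 41.2 CPM in CCI and 201 ± 50.8 CPM in sham libraries (edgeR adjusted p = 0.134). Of 8 neutrophil markers 6 rose and 0 fell, with summed CPM of 71.9 to 201 in CCI and 2.61 to 6.31 in sham libraries. CCI 1 was the highest CCI library for Trpv2 and Trpm2 and for the macrophage, neutrophil, lymphocyte and endothelial sums. CCI 3 came next for both channel genes but had the lowest macrophage (2569 CPM) and neutrophil (71.9 CPM) sums of the CCI group. The part of these cells in the 2 channel genes was not tested.

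Trpv4 and Piezo1, channels opened by osmotic and mechanical stimuli, rose more modestly. Trpv4 had 12.8, 13.9, 8.98 and 13.5 CPM in CCI 1 to 4, against 4.80, 4.78, 5.34 and 6.06 CPM in sham 1 to 4. CCI 3 was the lowest of its group and still above every sham library, and Trpv4 rose 2.34-fold (log2 fold change 1.23, SE 0.16; edgeR adjusted p = 4.21e-05). Piezo1, a force-gated channel of endothelium and many other cells, had 320, 295, 311 and 307 CPM in CCI 1 to 4, against 158, 158, 136 and 180 CPM in sham 1 to 4. The CCI libraries differed little from each other, and Piezo1 rose 1.95-fold (log2 fold change 0.96, SE 0.08; edgeR adjusted p = 2.13e-06). Ctu2, a gene for a transfer RNA thiolation enzyme that overlaps Piezo1 in RefSeq, had 7.07 ± 0.502 CPM in CCI and 4.44 ± 0.0943 CPM in sham libraries, far below Piezo1 in counts. Of 10 endothelial markers 8 rose and 1 fell, with a median log2 fold change of 0.62 and summed CPM of 1446 to 1599 in CCI and 922 to 1005 in sham libraries. Their part in the Piezo1 and Trpv4 values was not tested.

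Piezo2, the touch channel of sensory neurons and Merkel cells, did not pass. It had 84.1, 109, 103 and 101 CPM in CCI 1 to 4, against 108, 84.5, 96.1 and 114 CPM in sham 1 to 4. The groups overlapped almost entirely (log2 fold change -0.02, SE 0.10; edgeR adjusted p = 0.875), and the approximate 95% interval of the log2 fold change was -0.28 to 0.24. Within libraries the FPKM of Piezo1 was 2.32 ± 0.341 times that of Piezo2 in CCI and 1.17 ± 0.148 times in sham libraries, a ratio that does not depend on the scaling between libraries. The lowest CCI ratio was 2.01 and the highest sham ratio 1.38.

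Trpm7, an ion channel fused to a protein kinase and a route of magnesium and calcium entry in most cells, differed least among the 9 called genes. It had 144, 152, 140 and 157 CPM in CCI 1 to 4, against 164, 171, 197 and 152 CPM in sham 1 to 4. Sham 4 lay within the CCI range, and the call was narrow (log2 fold change -0.21, SE 0.08; edgeR adjusted p = 0.0421). It was lost without CCI 3, sham 2 or sham 3 (edgeR adjusted p = 0.0545, 0.0729 and 0.113) and without CCI 2 and sham 2 (0.102), and its sign turned with library totals as the only scaling (log2 fold change 0.02), which moved the median of all tested genes to 0.27.

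**Figure D3:**
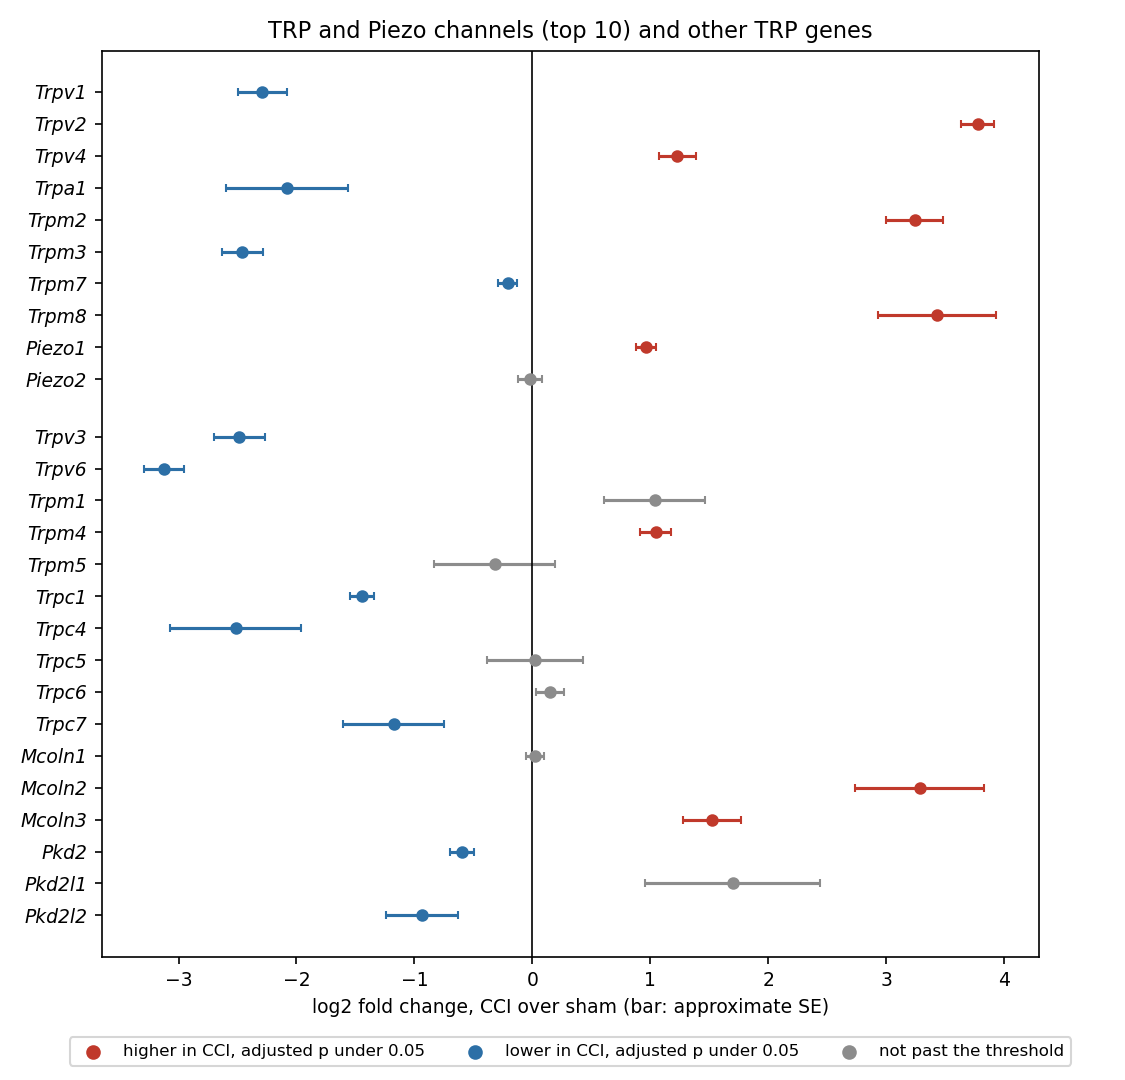
Log2 fold change, CCI over sham, of the 10 genes (upper block) and of other tested TRP genes (lower block), with approximate SE bars, red where called higher, blue where called lower and grey where not past the threshold. The values run from -2.46 (Trpm3) to 3.78 (Trpv2) in the upper block and from -3.12 (Trpv6) to 3.29 (Mcoln2) in the lower block. With library totals as the only scaling Trpm7 and Piezo2 are at 0.02 and 0.21.

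Per kilobase of gene length, the most abundant channel transcripts differed between the groups. In CCI libraries Trpv2 (23.8 ± 2.32 FPKM), Piezo1 (22.7 ± 0.778 FPKM) and Trpm7 (22.7 ± 1.15 FPKM) stood first with overlapping ranges, followed at a distance by Piezo2 (9.90 ± 1.14 FPKM). Trpv4 (4.09 ± 0.714 FPKM), Trpm3 (4.04 ± 1.11 FPKM) and Trpm2 (3.75 ± 0.807 FPKM) came next and overlapped each other, and Trpv1, Trpm8 and Trpa1 lay under 1 FPKM in every CCI library. In sham libraries Trpm7 (22.4 ± 2.35 FPKM) and Trpm3 (18.9 ± 2.19 FPKM) stood first with overlapping ranges, then Piezo1 (9.96 ± 1.21 FPKM) and Piezo2 (8.57 ± 1.09 FPKM), which also overlapped. Trpv1 (2.56 ± 0.544 FPKM) came next, above Trpv4 (1.5 ± 0.180 FPKM) and Trpv2 (1.49 ± 0.260 FPKM), and the last places were held by Trpm2, Trpa1 and Trpm8, each under 0.5 FPKM in every sham library. In both groups 5 of the 9 neighbouring pairs in this order had ranges that did not overlap. The gene lengths are those implied by the deposited tables, from 2804 bases for Trpv2 to 14678 for Piezo1.

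As a share of the summed FPKM of the 10 genes, Trpv2 made up 25.9% ± 2.16 in CCI and 2.25% ± 0.339 in sham libraries, and Trpm3 4.37% ± 1.11 and 28.7% ± 2.26. Piezo1 made up 24.7% ± 0.554 in CCI and 15.2% ± 2.42 in sham libraries, and Trpm7 24.7% ± 1.69 and 33.9% ± 2.12. The ratio of Trpv2 to Trpv1, both of the vanilloid group, was 29.4 to 57.6 in CCI libraries and 0.357 to 0.733 in sham libraries. The Trpm3 to Trpm7 ratio was 0.149 to 0.259 in CCI and 0.804 to 0.904 in sham libraries. The summed FPKM of the 10 was 90.4 to 94.6 in CCI and 63.7 to 70.3 in sham libraries, and FPKM carries no correction for the makeup of a library.

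**Figure D4:**
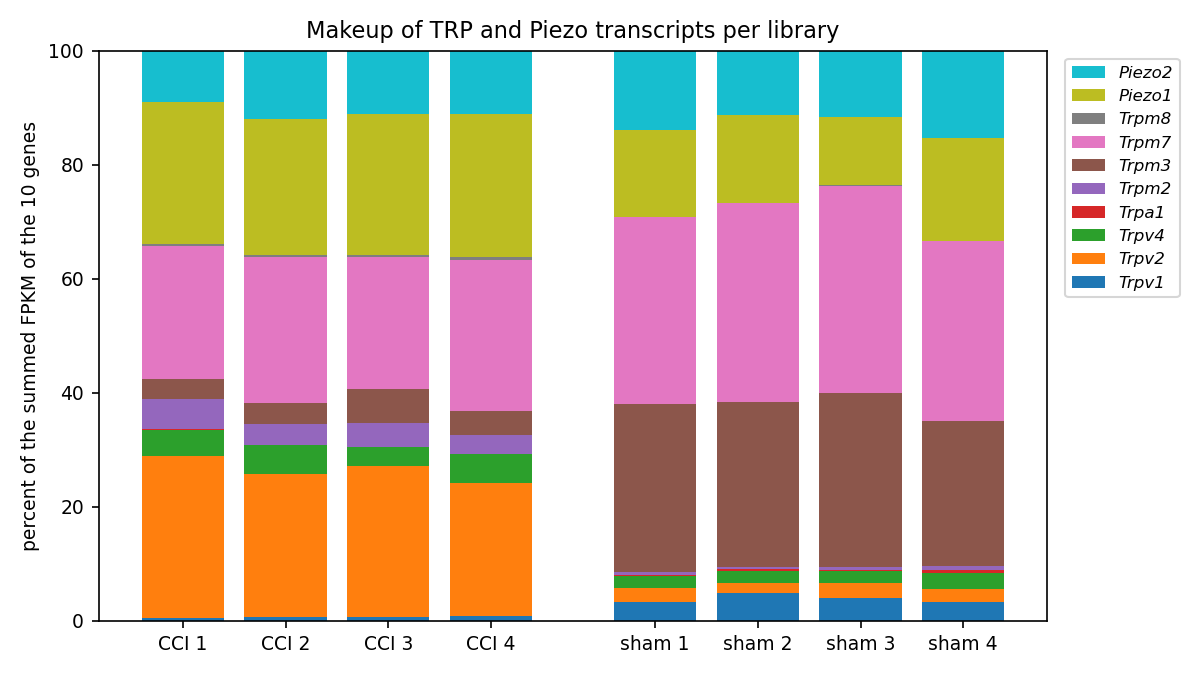
Share (percent) of each gene in the summed FPKM of the 10 genes, 1 stacked bar per library, CCI left of sham. Trpv2 fills 23.4% to 28.5% of the CCI bars and 1.75% to 2.51% of the sham bars, while Trpm3 fills 3.55% to 6.00% of the CCI bars and 25.4% to 30.7% of the sham bars.

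Of 20 other TRP genes, 17 were tested, of which 7 fell and 3 rose, with a median log2 fold change of -0.32. That share of calls was no higher than the 68.4% of all tested genes. With library totals as the only scaling 5 fell and 7 rose. Trpv6, a calcium entry channel of epithelia, had 2.00 ± 0.354 CPM in CCI and 17.4 ± 2.66 CPM in sham libraries (log2 fold change -3.12, SE 0.17; edgeR adjusted p = 6.40e-08). Trpv3, a warmth-sensing channel of keratinocytes, had 5.63 ± 1.73 CPM in CCI and 31.5 ± 4.61 CPM in sham libraries (edgeR adjusted p = 5.01e-06). Trpv3 lies next to Trpv1 in RefSeq, and Shpk, a sugar kinase gene on the other side of Trpv1, had 11.0 ± 1.78 CPM in CCI and 39.9 ± 1.26 CPM in sham libraries (edgeR adjusted p = 1.16e-07). Aspa, which overlaps Trpv3 and encodes aspartoacylase, had 24.3 ± 2.05 CPM in CCI and 118 ± 30.4 CPM in sham libraries (edgeR adjusted p = 2.55e-06), so the Trpv3 count is uncertain where reads were shared.

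The receptor-operated channel genes Trpc1 (log2 fold change -1.44), Trpc4 (-2.52) and Trpc7 (-1.18) fell, as did the polycystin genes Pkd2 (-0.59) and Pkd2l2 (-0.94), with edgeR adjusted p between 4.50e-07 and 0.0309. Trpc4 was rare, with 2, 13, 9 and 3 counts in CCI 1 to 4 and 24, 32, 41 and 35 counts in sham 1 to 4 (SE 0.55). Trpc7 was low too, with 0.646 ± 0.245 CPM in CCI and 1.46 ± 0.653 CPM in sham libraries. Scaling by library totals alone ended the calls of Trpc7 and Pkd2l2 (edgeR adjusted p = 0.072 and 0.0592), and that of Trpc7 also without CCI 1 (0.0586), sham 1 (0.108) or sham 2 (0.0547). The genes that rose were Trpm4, a calcium-activated channel for monovalent ions, with 19.3 ± 2.92 CPM in CCI and 9.35 ± 1.14 CPM in sham libraries, and Mcoln2 and Mcoln3, which encode channels of endosomes and lysosomes. Mcoln2 had 3.30 ± 1.30 CPM in CCI and 0.338 ± 0.259 CPM in sham libraries (log2 fold change 3.29, SE 0.55; edgeR adjusted p = 0.000354), and Mcoln3 8.10 ± 2.86 and 2.81 ± 0.343 CPM (edgeR adjusted p = 0.000229). The main lysosomal channel gene Mcoln1 had 30.03 ± 1.55 CPM in CCI and 29.5 ± 2.36 CPM in sham libraries and did not pass (edgeR adjusted p = 0.789), but did with library totals only (log2 fold change 0.25; edgeR adjusted p = 0.0179). Trpc5 (log2 fold change 0.02), Trpc6 (0.15), Trpm1 (1.04), Trpm5 (-0.32) and Pkd2l1 (1.70) did not pass, with edgeR adjusted p between 0.0504 and 0.966, and Trpc2, Trpv5 and Trpm6 were too rare to be tested.

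Of 16 tested partners of Piezo channels and other force-gated channels 5 rose and 5 fell, a share of calls no higher than the 68.4% of all tested genes, with a median log2 fold change of -0.23 (6 rising and 4 falling with library totals as the only scaling). Those with the smallest p among the rises were Stom, the membrane protein stomatin, with 124 ± 6.96 CPM in CCI and 61.4 ± 8.08 CPM in sham libraries (edgeR adjusted p = 3.84e-06), and Tmem63a, an osmosensitive channel gene, with 34.8 ± 1.24 and 19.4 ± 1.75 CPM (edgeR adjusted p = 4.35e-06). Among the falls they were Tmem63c, with 9.39 ± 0.952 CPM in CCI and 37.6 ± 2.77 CPM in sham libraries (edgeR adjusted p = 2.70e-08), and Kcnk2, the mechanosensitive potassium channel TREK-1, with 4.62 ± 0.60 and 22.3 ± 3.61 CPM (edgeR adjusted p = 2.14e-07). Mdfic and Mdfi, which encode subunits that bind Piezo channels, were singled out after their values were seen. Mdfic had 80.9 ± 6.98 CPM in CCI and 52.3 ± 1.5 CPM in sham libraries (edgeR adjusted p = 1.53e-05), and Mdfi 8.41 ± 1.44 and 0.937 ± 0.453 CPM (edgeR adjusted p = 1.30e-05).

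Of 19 tested genes whose products sensitise TRPV1 and TRPA1 6 rose and 6 fell, again a share of calls no higher than the 68.4% of all tested genes. Bdkrb1, the inducible bradykinin receptor, had 2.20 ± 0.513 CPM in CCI and 0.180 ± 0.0986 CPM in sham libraries (edgeR adjusted p = 2.96e-05). Ptger4, a prostaglandin E2 receptor, had 22.5 ± 1.77 CPM in CCI and 11.8 ± 1.65 CPM in sham libraries (edgeR adjusted p = 2.95e-05). P2ry2, a nucleotide receptor, had 30.2 ± 3.55 CPM in CCI and 124 ± 7.06 CPM in sham libraries (edgeR adjusted p = 1.93e-08). Prkce, the kinase PKC epsilon that phosphorylates TRPV1, had 19.6 ± 0.932 CPM in CCI and 46.5 ± 4.11 CPM in sham libraries (edgeR adjusted p = 2.29e-07).

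**Figure D5:**
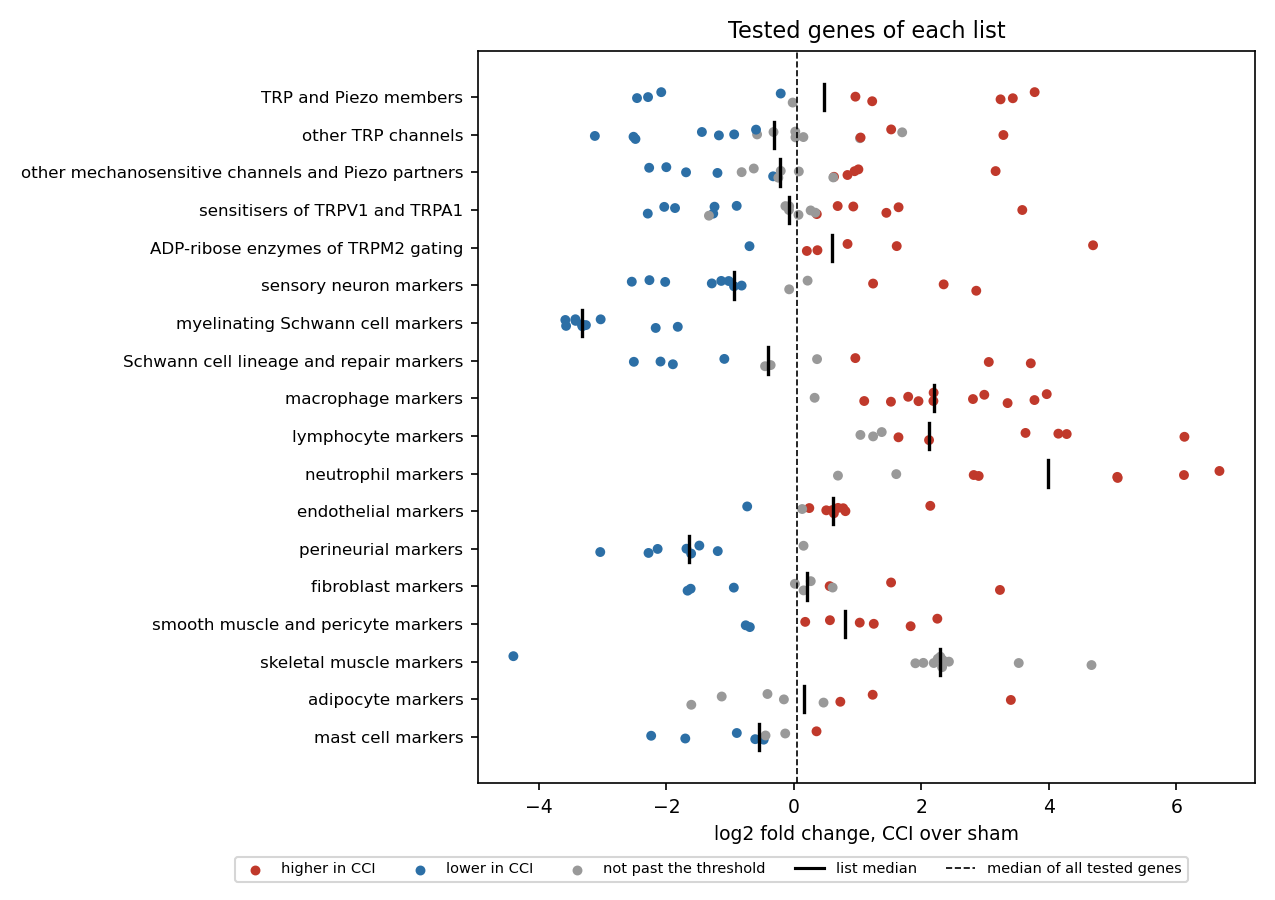
Log2 fold change, CCI over sham, of every tested gene of each list (red called higher, blue called lower, grey not past the threshold), with the list median as a black bar and the median of all tested genes, 0.05, as a dashed line. The medians are 0.47 for the 10 channels, 2.19 for macrophage markers and -3.32 for myelinating Schwann cell markers.

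Other cell type markers that stand beside these values moved as follows. All 10 myelinating Schwann cell markers fell (median log2 fold change -3.32), and 7 of 8 perineurial markers fell (median -1.65; summed CPM 897 to 1195 in CCI and 4744 to 6287 in sham libraries). Of 10 markers of the Schwann cell lineage and its repair state 3 rose and 4 fell. Of 9 tested lymphocyte markers 6 rose and 0 fell. Fibroblast markers went 3 up and 3 down of 10, smooth muscle and pericyte markers 6 up and 2 down of 8, adipocyte markers 3 up and 0 down of 8 and mast cell markers 1 up and 5 down of 8. Of 11 tested skeletal muscle markers 0 rose and 1 fell, at a median log2 fold change of 2.30, which was 0.58 without CCI 2 and 6.15 without sham 2. Without sham 2, 5 skeletal muscle markers rose, with the replicate block 4 rose, and without sham 1, 2 or 3, 1 adipocyte marker rose. Adipocyte markers also fell in some settings, 1 without sham 3 and 1 without CCI 4. In the DESeq2 Wald test and with the replicate block 3 adipocyte markers rose and 2 fell. The part of these cells in the channel transcripts was not tested.

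Genes with the most similar profile over the 8 libraries were found by Pearson r of log2 CPM among 14089 genes of at least 1 CPM, as a description that rests mainly on the difference between the groups. For Trpv2 they were the mitotic genes Kif23 and Ttk (r = 0.999 each), for Trpm2 Anxa2 (0.999) and Psmb8 (0.998), and for Piezo1 Parp10 and Fam65b (0.998 each). For Trpm3 they were Epb41l4b and Rasal2 (0.999 each), for Trpv1 Cbfa2t2 and Adamtsl4 (0.998 each), for Trpv4 Cdh3 (0.994) and Nol10 (0.993), and for Trpm8 Sap30 (0.994) and Tm4sf19 (0.993). For Trpm7 (Lrif1 and Zfp869, 0.973 and 0.965) and Piezo2 (Sh2d1b2 and Pkp3, 0.929 and 0.919) the values were lower.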

How the data were processed

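PolyA RNA of rat sciatic nerve (4 CCI and 4 sham libraries, day 15) was analysed from 2 tables. The authors deposited raw counts per gene name and FPKM values for the 8 libraries. Genome build Rnor_6.0 and the tools DESeq2, HTSeq, HISAT2, fastp and R 3.2.0 come from the submitters' processing notes, which give them no role. Annotation, strand setting and filters: not given in the sources used here. The deposited FPKM equal the count divided by gene length and library total. Counts were tested with edgeR 4.0.16 (R 4.3.3; filterByExpr, TMM, robust quasi-likelihood F test, group only), with Benjamini-Hochberg adjustment over all tested genes. The SE is the log2 fold change over the root of the F statistic, and the 95% interval takes it with the residual degrees of freedom. The test was also run on simulated data with known changes. Alternatives used DESeq2 1.42.0, limma 3.58.1, other scalings and filters, a replicate block and left-out libraries. Pairs of libraries within a group differed beyond sampling noise (chi-square 27.5 to 74.5 per degree of freedom), so each counted as 1 sample. The genes and lists were chosen with earlier results of these data known. Named from each other list were the 2 called genes with the smallest p in each direction, from the TRP list the tested genes, and for the cell type lists mostly counts. Scn10a, Nefh, Calca, Tac1, Pou4f1, Cd163, Parp2, Parg and the overlapping or neighbouring genes were named after their values were seen, and some genes are not reported here. RefSeq (GRCr8) served for names, overlaps and promoter windows. Floors cover counting error only, whereas SE and intervals include the spread between libraries.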

Additional observations from a re-analysis of the deposited data

How the results depend on the processing

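Of 159 alternative values for the 8 genes other than Trpm7 and Piezo2, 157 kept direction and side of the threshold. The exceptions were Trpv4 (edgeR adjusted p = 0.112) and Piezo1 (adjusted p of 1) when a minimum log2 fold change of 1 was required, a setting that left 6 of the 10 genes called and 3348 genes in the table in place of 10788. Trpa1 was too rare for a test where 1 CPM in 4 libraries was required. Limma on log2(FPKM + 1) gave -0.18 for Trpa1 and 0.40 for Trpm8, since the added 1 shrinks the changes of rare genes. Trpm7 turned to 0.019 with library totals only and to 0.022 and 0.023 with limma on log2(FPKM + 1) and log2(FPKM + 0.1), lost its call in limma-voom (adjusted p = 0.0583), and ranged from -0.26 to -0.13 with 1 library left out. Piezo2 turned to 0.21 with library totals only, 0.018 in limma-voom, 0.19 with log2(FPKM + 1) and 0.21 with log2(FPKM + 0.1), and ranged from -0.095 to 0.045 with 1 library left out. Library totals only also moved the median of all tested genes to 0.27, and FPKM carries no correction for library makeup. With 1 library left out, 8 or 9 of the 10 genes and 10217 to 10540 genes of the table were called. Deviations of same-numbered CCI and sham libraries correlated at -0.02 to 0.29, and those of differently numbered libraries at -0.32 to 0.13. The highest value was that of CCI 2 and sham 2. With so few libraries, whether the numbers pair the samples cannot be told. With the replicate block 8 of the 10 genes and 10505 of the table were called, the gene no longer called being Trpm7 (log2 fold change -0.20; adjusted p = 0.0807). The order per length was the same with TMM-normalised counts per kilobase, with 5 neighbouring pairs apart in each group. Both units rest on the same counts and the same gene lengths and differ only in the scaling of libraries. The effect of the gene lengths on the order was therefore not tested.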
